A study of Mus musculus with 30 samples.

Results

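The glutamate transporters and glutamine synthetase make up the set described here: the genes Slc1a1, Slc1a2, Slc1a3, Slc17a6, Slc17a7 and Glul. Members were the probe sets whose platform gene symbol is exactly 1 of these 6. The rule found 11 probe sets for 5 of the 6 genes, of 22690 probe sets on the array: 3 for Slc1a3, 3 for Slc1a1, 2 for Glul, 2 for Slc17a6 and 1 for Slc1a2. Slc17a7 matched no probe set and is not analysed here. The lead probe set of a gene is the 1 with its highest mean over all arrays.

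Right forebrain from 30 male C57BL mice was profiled on Affymetrix MOE430A arrays, with 1 mouse per array and 10 mice per group. Mice in the first group drank clozapine, an antipsychotic that binds many receptor types, at 12 mg/kg/day for 12 weeks. Those in the second drank haloperidol, an antipsychotic that mainly blocks the dopamine D2 receptor, at 1.6 mg/kg/day for 12 weeks. Controls received no drug, and mice of all groups were housed singly. The labels give 4 weeks as the age, which cannot be the age after 12 weeks of drug, and 1 label names the left hemisphere where the others name the right. Forebrain tissue mixes many cell types, so fewer cells of a type and less RNA per cell cannot be told apart.

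Glutamate released at excitatory synapses is cleared mainly by astrocytes, through the sodium-coupled transporters encoded by Slc1a2 and Slc1a3. Inside the astrocyte, glutamine synthetase joins ammonia to glutamate, and the glutamine passes back to neurons to be made into transmitter again. Neurons carry a transporter of their own, encoded by Slc1a1, and fill synaptic vesicles with glutamate through the vesicular transporters encoded by Slc17a6 and Slc17a7.

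The DNA around the RefSeq start sites of Slc1a3 and Glul is shown because these are the astrocyte genes read by more than 1 probe set, whose probe sets are compared below. Each window runs from 250 bases before to 50 bases after the start, on the gene's own strand, from RefSeq on GRCm38.p6. Capitals mark, on either strand, the CCAAT box (letters CCAAT), the GC box (letters GGGCGG) and the TATA box (letters TATAAA). The Slc1a3 window is chr15:8710758-8711057, minus strand, and the Glul window is chr1:153899679-153899978, plus strand.
Slc1a3: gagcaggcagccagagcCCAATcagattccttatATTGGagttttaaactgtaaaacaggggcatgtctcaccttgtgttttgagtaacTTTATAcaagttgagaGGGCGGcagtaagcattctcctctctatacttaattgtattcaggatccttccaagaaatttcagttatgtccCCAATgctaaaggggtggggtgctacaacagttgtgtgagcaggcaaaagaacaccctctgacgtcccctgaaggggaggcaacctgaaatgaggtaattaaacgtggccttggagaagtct
Glul: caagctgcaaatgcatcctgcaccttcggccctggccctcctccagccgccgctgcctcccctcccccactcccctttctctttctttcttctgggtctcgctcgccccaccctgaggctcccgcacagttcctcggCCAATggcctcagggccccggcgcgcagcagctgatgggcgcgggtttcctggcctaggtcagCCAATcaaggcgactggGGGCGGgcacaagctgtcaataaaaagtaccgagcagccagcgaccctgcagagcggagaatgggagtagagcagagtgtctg
Boxes were matched by letters alone, anywhere in the window. The Slc1a3 window held 3 CCAAT boxes, 1 GC box and 1 TATA box, the last on the opposite strand (TTTATA). The Glul window held 2 CCAAT boxes and 1 GC box. Of 32851 RefSeq windows of the same kind, 37.4% held a CCAAT box, 35.7% a GC box and 13.6% a TATA box, and the motifs do not overlap here. GC content was 45.3% for Slc1a3 and 64.3% for Glul, against a median of 52.7% over all windows. Expression arrays do not measure these bases, so no value below bears on the motifs.

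Values are log2 expression after GCRMA, the submitters' normalization, so a difference of 1 is a doubling. Probe sets differ in affinity, so levels are compared between groups within a probe set and not between genes. Testing was limited to the 12944 probe sets whose average over the 30 arrays reached 4, and all 11 members passed that filter. Forebrain markers such as Neurod6 and Tbr1, transcription factors of cortical excitatory neurons, were measured at group means of 7.84 to 8.62. Before any comparison, the arrays fell into clusters that cut across the drugs. Average linkage on the correlation between arrays gave cluster A with 11 arrays (3 clozapine, 5 haloperidol, 3 control), cluster B with 8 (1, 3 and 4) and cluster C with 7 (5, 0 and 2). Clozapine 7, haloperidol 2, haloperidol 7 and control 1 each stood alone. The difference between 3' and 5' control probe sets, a sign of RNA degradation, averaged 0.64 in A, 0.60 in B and 1.06 in C, and reached 2.45 in haloperidol 7 and 4.09 in control 1. The labels give no batch, and what sets the clusters apart was not tested.

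No member passed the test in any comparison. With limma and Benjamini-Hochberg adjustment, 0 of 12944 probe sets had an adjusted p under 0.05 for clozapine against control (0%), for haloperidol against control (0%) or for clozapine against haloperidol (0%), and so 0 of the 11 members did. The smallest member adjusted p was 1 for clozapine against control, 1 for haloperidol against control and 0.965 for clozapine against haloperidol. At an unadjusted p under 0.05, 0 of 11 members passed for clozapine against control, against 563 probe sets in all (4.35%). For haloperidol against control 1 of 11 passed, against 298 in all (2.3%), and for clozapine against haloperidol 1 of 11 passed, against 406 in all (3.14%). Slc17a6 1428379_at was that member in both cases. Arrays farther from their group's mean were then given less weight (limma array weights), with no account of array cluster. In that fit 5 of 11 members passed the adjusted threshold for clozapine against control, against 1731 of 12944 probe sets (13.4%). In the other comparisons 0 of 11 passed. Those 5 were Slc1a1 1460386_a_at (-1.48, SE 0.36), Slc17a6 1418610_at (-0.88, SE 0.25), Slc1a1 1425415_a_at (-0.81, SE 0.22), Slc1a3 1426341_at (-0.63, SE 0.19) and Glul 1426236_a_at (0.31, SE 0.11). With array cluster as a block and no weights, 0 of 11 members passed, against 0 of 12944 probe sets (0%). The same 5, in the same order, were then at -0.25 (SE 0.29), -0.26 (SE 0.19), -0.09 (SE 0.20), -0.07 (SE 0.17) and 0.08 (SE 0.10). Ranges of the groups overlapped in all 33 member comparisons.

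**Figure D1:**
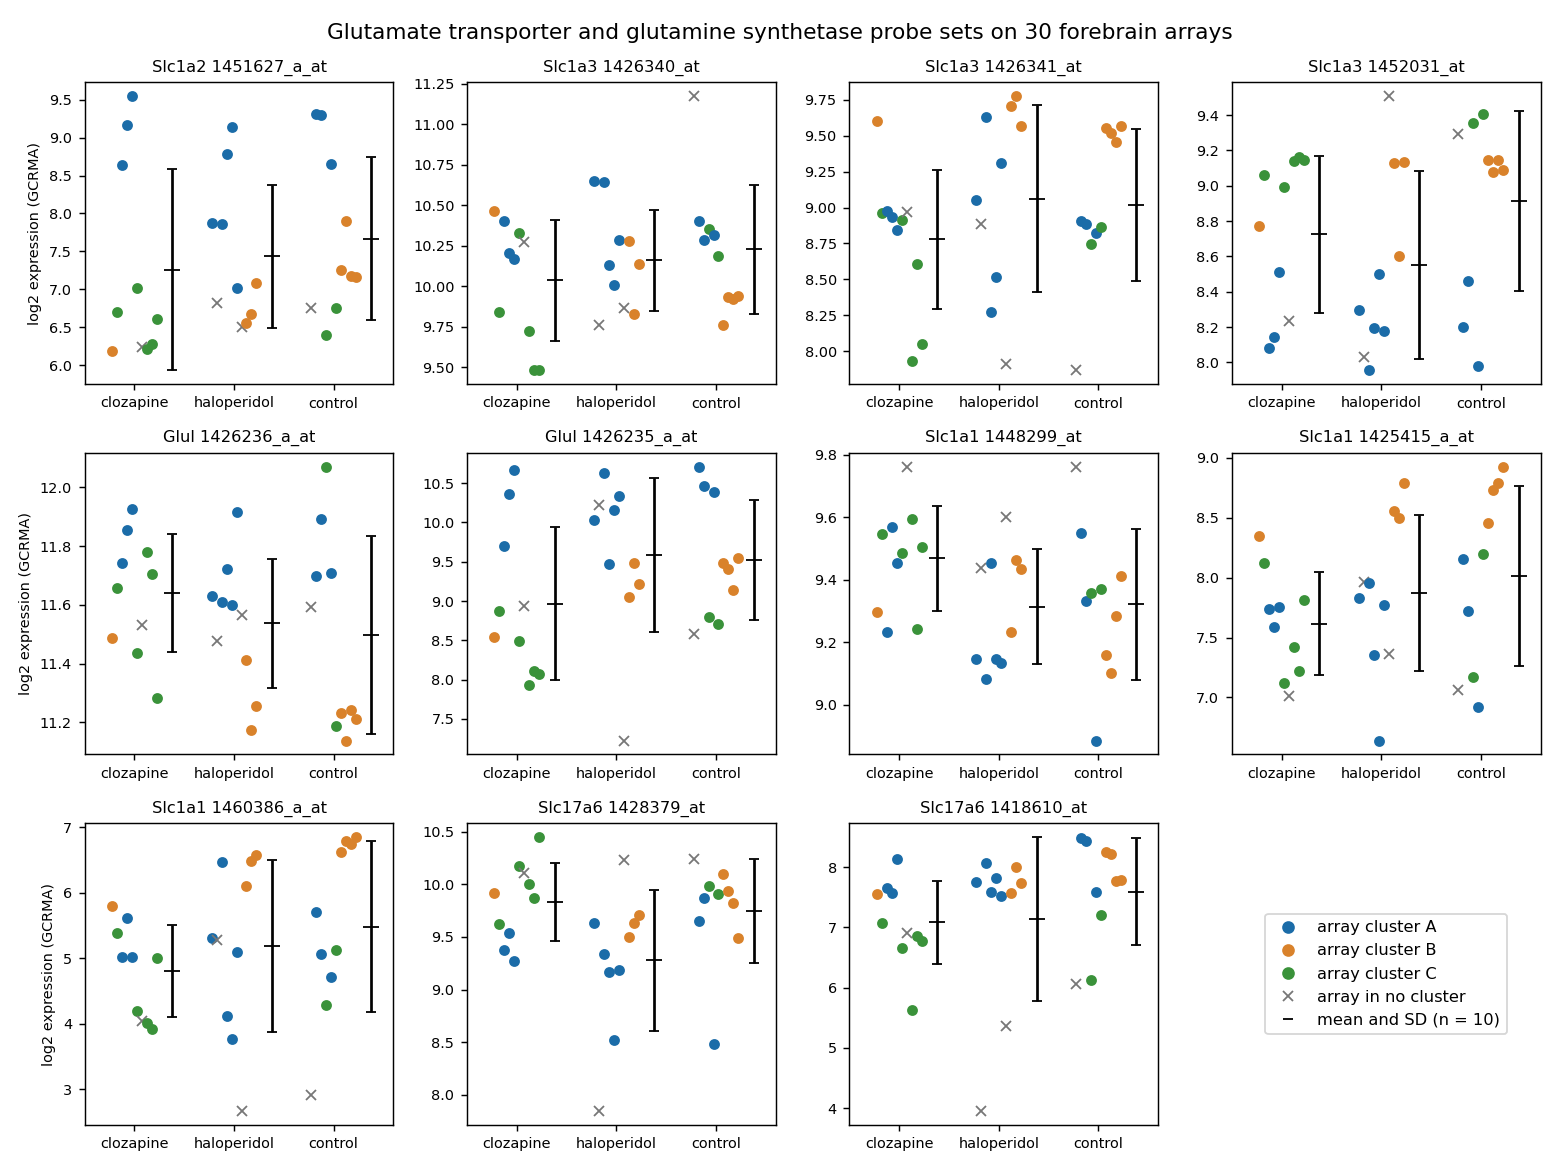
Log2 expression (GCRMA) of each of the 11 member probe sets on the vertical axis, by group on the horizontal axis; each point is 1 array, coloured by array cluster, crosses are arrays in no cluster, and bars are the mean and SD of 10 mice. The 3 groups overlap in every panel, while colours separate in several of them, as for Slc1a2, where cluster A averages 8.66, cluster B 7.002 and cluster C 6.57.

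Slc1a2 encodes GLT1, the transporter that does most glutamate uptake in the forebrain, and was read by 1451627_a_at. Its lowest, median and highest values were 6.19, 6.66 and 9.55 in clozapine mice, 6.51, 7.05 and 9.14 in haloperidol mice, and 6.40, 7.22 and 9.31 in control mice. Each group held a few arrays near 9 and more arrays near 7, so the groups overlapped over most of their range. The mean was 7.26 ± 1.33 in clozapine mice, 7.43 ± 0.94 in haloperidol mice and 7.67 ± 1.07 in control mice (SD, n = 10 each). Clozapine minus control was -0.41 (SE 0.48, 95% confidence interval -1.39 to 0.57), and haloperidol minus control was -0.24 (SE 0.48, interval -1.21 to 0.74). Both intervals include 0, and changes of the sizes they span are not excluded. With array cluster as a block, described next, clozapine minus control was -0.19 (SE 0.25).

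The only Slc1a2 probe set varied more between arrays than most: its SD over 30 arrays was 1.10, above that of 94.97% of tested probe sets. Its mean of 7.45 was above that of 54.3% of them. With 1 probe set, spread of the gene and of the probe set cannot be told apart. For Glul, the SD was above that of 10.4% of tested probe sets by the lead and of 91.7% by 1426235_a_at. Array cluster accounted for 72.9% of the Slc1a2 variance over the 26 clustered arrays and treatment for 2.40% over all 30. Cluster means were 8.66 ± 0.78 in A (SD, n = 11), 7.002 ± 0.52 in B (n = 8) and 6.57 ± 0.29 in C (n = 7), a description with no test, since the clusters were made from these arrays. When array cluster was added to the model as a block, the 4 lone arrays were absorbed and the fit rested on 26 arrays. There, haloperidol minus control for Slc1a2 was -0.79 (SE 0.25, unadjusted p = 0.00412, limma adjusted p = 1) and did not pass. Within cluster A it averaged 8.14 in 5 haloperidol mice and 9.09 in 3 control mice, and within cluster B 6.77 in 3 haloperidol mice and 7.38 in 4 control mice. In the blocked fit 1 of 11 members had an unadjusted p under 0.05 for haloperidol against control, against 4.24% of all probe sets; at the adjusted threshold 0 of 11 did, against 1 of 12944 (0.00773%). Slc1a2 was also the 1 of 11 for clozapine against haloperidol in that fit, against 5.89% of all. The difference was 0.60 (SE 0.28, unadjusted p = 0.0415, limma adjusted p = 0.826), and without the block it was -0.17. Within cluster A, Slc1a2 averaged 9.12 in 3 clozapine mice and 8.14 in 5 haloperidol mice. Cluster B ran the other way, at 6.19 in 1 clozapine mouse and 6.77 in 3 haloperidol mice, and cluster C held no haloperidol array.

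Slc1a3 encodes GLAST, the second astrocyte uptake transporter, and its lead probe set 1426340_at was steadier. It had a lowest, median and highest value of 9.48, 10.19 and 10.46 in clozapine mice, 9.76, 10.14 and 10.65 in haloperidol mice, and 9.76, 10.23 and 11.17 in control mice. All groups lay close together, and control 1 was the highest of all arrays. Clozapine minus control was -0.19 (SE 0.16) and haloperidol minus control was -0.07 (SE 0.16). The other probe sets were 1426341_at, at -0.24 (SE 0.24) for clozapine minus control and 0.04 (SE 0.24) for haloperidol minus control, and 1452031_at, at -0.19 (SE 0.22) and -0.36 (SE 0.22) for the same comparisons. None of these 6 differences exceeded the spread between mice. With the cluster block, clozapine minus control was -0.09 (SE 0.14) for 1426340_at and -0.07 (SE 0.17) for 1426341_at.

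Glul is the gene of glutamine synthetase, the astrocyte enzyme, and its lead probe set 1426236_a_at varied little: its SD of 0.26 over 30 arrays was above that of 10.4% of tested probe sets. Its lowest, median and highest values were 11.28, 11.68 and 11.93 in clozapine mice, 11.17, 11.58 and 11.92 in haloperidol mice, and 11.14, 11.42 and 12.07 in control mice. Control mice spanned the range of both drug groups. Clozapine minus control was 0.14 (SE 0.12, interval -0.11 to 0.39) and haloperidol minus control 0.04 (SE 0.12, interval -0.21 to 0.29), or 0.08 and -0.03 with the cluster block. The second Glul probe set, 1426235_a_at, went the other way under clozapine. Its lowest, median and highest values were 7.93, 8.71 and 10.67 in clozapine mice, 7.22, 9.76 and 10.63 in haloperidol mice, and 8.58, 9.44 and 10.71 in control mice. Of 10 clozapine mice, 7 were below the control mean, but the ranges overlapped. Clozapine minus control was -0.55 (SE 0.39) and haloperidol minus control 0.06 (SE 0.39). With the cluster block, clozapine minus control for 1426235_a_at was -0.43 (SE 0.17, unadjusted p = 0.0167, limma adjusted p = 0.700), the 1 of 11 members at an unadjusted p under 0.05, against 6.93% of all.

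Slc1a1 encodes EAAC1, the neuronal uptake transporter, and its lead probe set 1448299_at varied little: its SD of 0.21 over 30 arrays was above that of 4.18% of tested probe sets. Its lowest, median and highest values were 9.23, 9.50 and 9.76 in clozapine mice, 9.08, 9.34 and 9.60 in haloperidol mice, and 8.89, 9.34 and 9.76 in control mice. Clozapine mice lay in the upper part of the control range, with 7 of 10 above the control mean. Clozapine minus control was 0.15 (SE 0.10, interval -0.06 to 0.35), and clozapine minus haloperidol was 0.16 (SE 0.10, interval -0.05 to 0.36). Haloperidol minus control was -0.01 (SE 0.10), and these intervals bound a change in this probe set within 0.36 either way. The other Slc1a1 probe sets pointed down for clozapine minus control, 1425415_a_at by -0.40 (SE 0.27) and 1460386_a_at by -0.68 (SE 0.49), or -0.09 (SE 0.20) and -0.25 (SE 0.29) with the cluster block. For 1460386_a_at the lowest, median and highest values were 3.92, 5.02 and 5.79 in clozapine mice, 2.66, 5.29 and 6.57 in haloperidol mice, and 2.91, 5.42 and 6.85 in control mice. Clozapine values sat inside the control range, and the lowest haloperidol and control values were those of the lone arrays haloperidol 7 and control 1.

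Slc17a6 encodes VGLUT2, which loads glutamate into vesicles chiefly in thalamic and other subcortical neurons. Lead probe set 1428379_at had a lowest, median and highest value of 9.27, 9.89 and 10.45 in clozapine mice, 7.84, 9.42 and 10.23 in haloperidol mice, and 8.48, 9.89 and 10.24 in control mice. Haloperidol mice were the low group, with 9 of 10 below the control mean and 9 of 10 clozapine mice above the haloperidol mean, though the ranges overlapped. Haloperidol minus control was -0.47 (SE 0.23, interval -0.94 to -0.0013, unadjusted p = 0.0494, limma adjusted p = 1). Clozapine minus haloperidol was 0.56, a fold of 1.47 (SE 0.23, interval 0.09 to 1.02, unadjusted p = 0.0220, limma adjusted p = 0.965). Neither passed the adjusted threshold. Without haloperidol 2, the lowest array, these differences were -0.31 (SE 0.20) and 0.40 (SE 0.20). With the cluster block they were -0.19 (SE 0.17) and 0.25 (SE 0.18); cluster A, which holds 5 of the 10 haloperidol arrays, averaged 9.27, against 9.76 in B and 10.00 in C.

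The second Slc17a6 probe set, 1418610_at, did not follow the lead: clozapine minus haloperidol was -0.06 (SE 0.43), haloperidol minus control -0.45 (SE 0.43) and clozapine minus control -0.51 (SE 0.43). With the cluster block these were 0.03 (SE 0.21), -0.29 (SE 0.19) and -0.26 (SE 0.19). Thalamic and midbrain neuron markers, which share neurons with Slc17a6, had a summed log2 level of 10.99 to 11.55 in clozapine mice, 10.92 to 11.42 in haloperidol mice and 10.99 to 11.51 in control mice over 9 measured genes. Of the 6 that were tested, 0 passed in any comparison, and in haloperidol against control 2 were higher and 4 lower, with a median difference of -0.16. Their part in the Slc17a6 values was not tested.

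Across all 11 probe sets, 3 were higher and 8 lower in clozapine than in control mice, with a median difference of -0.24. Over all tested probe sets 55.3% were higher, with a median of 0.02. For haloperidol against control 3 were higher and 8 lower, with a median of -0.14, against 43.5% higher and a median of -0.03 over all. For clozapine against haloperidol 4 were higher and 7 lower, with a median of -0.12, against 60.7% higher and a median of 0.05 over all. With the cluster block, clozapine against haloperidol turned to 7 higher and 4 lower, with a median of 0.04, against 58.4% higher over all. The clozapine minus control median was then -0.09, with 3 higher and 8 lower, against 53.7% higher over all. These medians rest on probe sets that share genes, and over the 5 lead probe sets the clozapine minus control median was 0.08, with 3 higher and 2 lower. The lead probe sets gave 1 higher and 4 lower for haloperidol against control (median -0.07). They gave 3 higher and 2 lower for clozapine against haloperidol (median 0.10). The drug comparisons share the control mice.

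**Figure D2:**
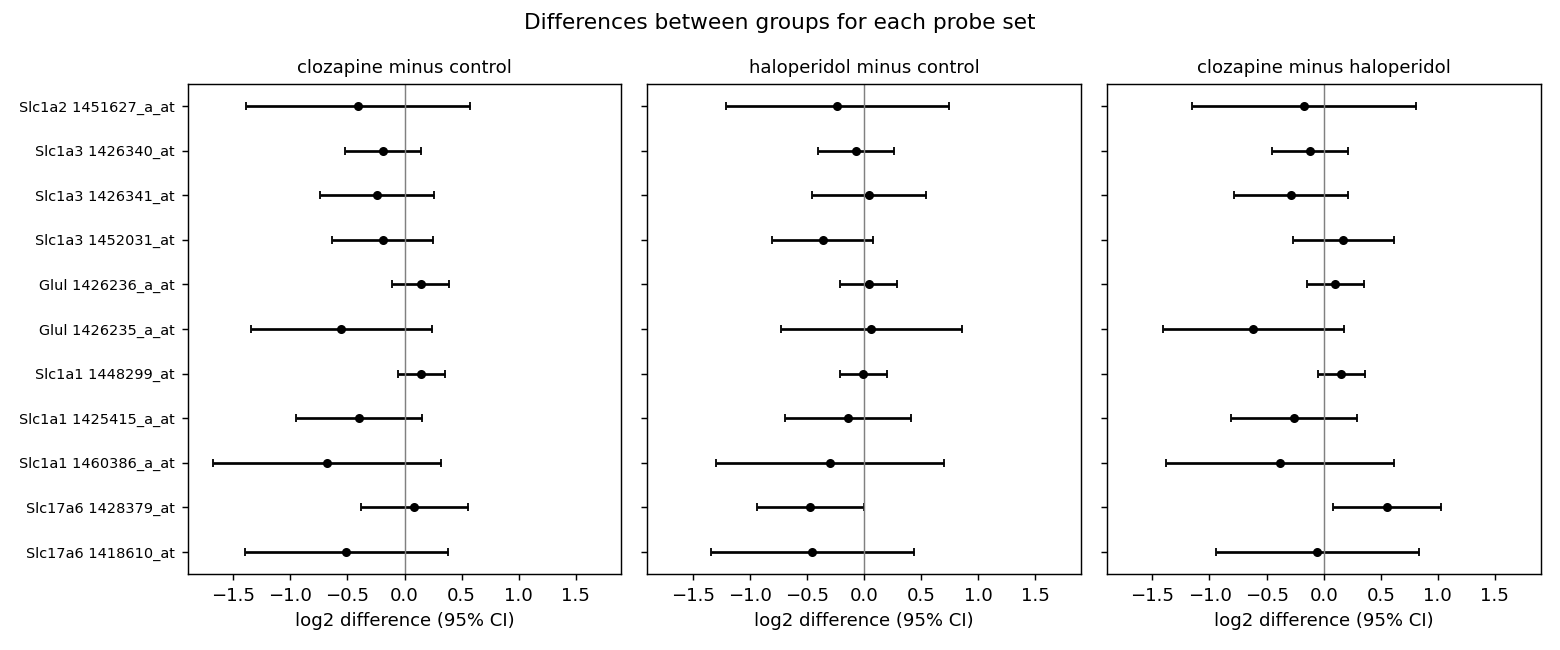
Log2 difference on the horizontal axis for clozapine minus control, haloperidol minus control and clozapine minus haloperidol, with 95% confidence intervals from limma, for each of the 11 probe sets down the page. Intervals include 0 for all but Slc17a6 1428379_at, whose unadjusted intervals are -0.94 to -0.0013 and 0.09 to 1.02.

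Each member had a larger share of its variance by array cluster than by treatment. Treatment shares used all 30 arrays and cluster shares the 26 clustered arrays. The clusters were made from these same arrays, so their shares are a description. Treatment accounted for 2.40% to 19.3% of the variance of a member (median 6.16%), against a median of 4.74% over all tested probe sets. Cluster accounted for 16.5% to 85.5% (median 63.5%), against a median of 40.8% over all tested probe sets. Slc1a3 1452031_at stood at the top with 85.5%, at 8.23 ± 0.20 in A, 9.01 ± 0.21 in B and 9.18 ± 0.15 in C (SD). Glul 1426235_a_at followed with 82.2% and ran the opposite way, at 10.27 ± 0.40 in A, 9.23 ± 0.33 in B and 8.42 ± 0.39 in C. At the other end the lead probe set of Slc1a1 had 16.5%.

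Probe sets of 1 gene thus went different ways between clusters. In cluster B, Slc1a1 1425415_a_at averaged 8.64 against 7.58 in A and 7.58 in C, and 1460386_a_at averaged 6.50 against 5.08 in A and 4.56 in C, while the lead probe set of Slc1a1 averaged 9.30 against 9.27 in A and 9.44 in C. Astrocyte markers, of which 16 of 16 were measured and tested, had summed log2 levels of 14.43 to 14.66 in A, 14.72 to 14.86 in B and 14.77 to 14.93 in C. Cluster A was thus lowest in this summed level, to which the most strongly expressed markers add most. By cluster mean, A was highest in Slc1a2, Slc1a3 1426340_at, Glul 1426236_a_at and Glul 1426235_a_at. It was lowest in Slc1a3 1452031_at and between B and C in Slc1a3 1426341_at. By treatment the summed astrocyte markers spanned 14.51 to 14.92 in clozapine mice, 14.57 to 15.30 in haloperidol mice and 14.43 to 14.93 in control mice. Of the 16 markers, 0 passed in any comparison. Their part in the member values was not tested.

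Within clusters, agreement between probe sets of the same gene was tested for 8 pairs in 3 clusters, 24 relations in all, chosen after the data had been seen. Slc1a1 1425415_a_at and 1460386_a_at varied together, with Pearson r of 0.79 in A (n = 11, permutation p = 0.00412, adjusted p = 0.0494), 0.77 in B (n = 8, exact permutation p = 0.0205, adjusted p = 0.0983) and 0.92 in C (n = 7, exact permutation p = 0.0137, adjusted p = 0.0821). Spearman rho was 0.82, 0.74 and 0.68 (permutation, adjusted p = 0.0821 in A, 0.275 in B and 0.436 in C), and r without the 2 arrays farthest from the median was 0.73, 0.47 and 0.78. With the lead Slc1a1 probe set, 1425415_a_at kept 1 sign, with r of 0.41 in A, 0.22 in B and 0.26 in C. For 1460386_a_at with the lead, r was 0.10, -0.01 and 0.28, and neither pair passed. Slc1a3 1426340_at and 1426341_at also kept 1 sign, with r of 0.73 in A (permutation p = 0.0103, adjusted p = 0.0821), 0.16 in B and 0.63 in C, but did not pass. For Glul, the 2 probe sets had r of 0.23 in A, -0.89 in B (exact permutation p = 0.00275, adjusted p = 0.0494) and 0.09 in C, and the value in B was -0.51 without the 2 farthest arrays, so it rested on them. Those 2 relations passed the adjusted threshold by Pearson r, and 0 of 24 passed by Spearman rho or without the 2 farthest arrays.

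**Figure D3:**
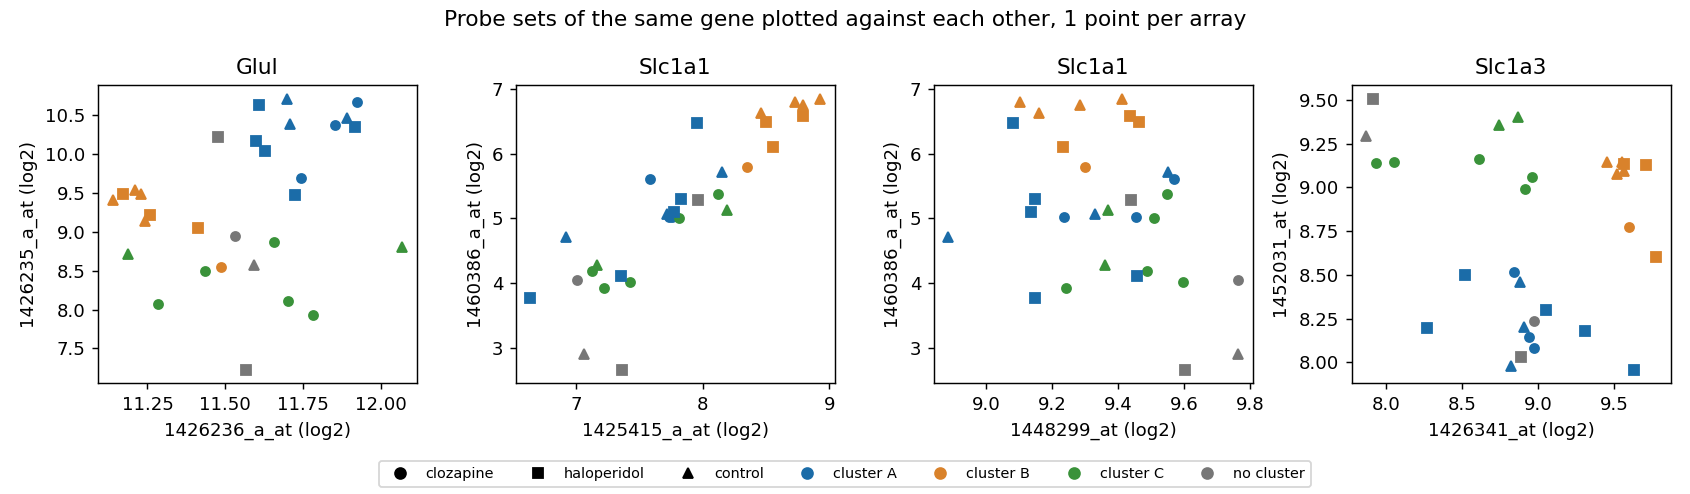
Log2 expression of 1 probe set against another of the same gene, 1 point per array, shaped by treatment and coloured by cluster, for Glul, Slc1a1 (2 panels) and Slc1a3. Slc1a1 1425415_a_at and 1460386_a_at lie along a rising line (r 0.79 in A, 0.77 in B and 0.92 in C), while the Glul panel, the Slc1a3 panel (1426341_at against 1452031_at) and the panel with the lead Slc1a1 probe set show no common line over all arrays.

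Between genes, the lead probe sets gave 10 pairs in 3 clusters, 30 relations in all, and 0 passed after adjustment by Pearson r, by Spearman rho or without the 2 farthest arrays. The strongest was Slc1a3 with Glul in cluster B (r 0.89, rho 0.69, exact permutation p = 0.00513 for r, adjusted p = 0.154), which dropped to 0.32 without the 2 farthest arrays. Slc1a2 with Glul in cluster B was next (r -0.81, rho -0.69, exact permutation p = 0.0129 for r, adjusted p = 0.194). Slc1a2 and Slc1a3 had r of -0.51 in A, -0.66 in B and 0.51 in C. Only Slc1a2 with Slc17a6 kept 1 sign in every cluster, at 0.06, 0.29 and 0.16.

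Genes most like each member were ranked by the lowest of their 3 within-cluster r values, over 11, 8 and 7 arrays. For Slc1a2 they were Bdh1 (0.82), Map1b (0.81) and Kdm5a (0.80). For Slc1a3 they were Atp6v1b2 (0.78), Srsf1 (0.70) and Hmgcs1 (0.70), and for Glul Ppp5c (0.58), Sez6l (0.57) and Ptcd1 (0.55). For Slc1a1 they were Tpm1 (0.76), Calr (0.70) and Dio2 (0.69), and for Slc17a6 Ube2e2 (0.72), Lgals8 (0.72) and Tmem98 (0.71). Each was picked as the highest of all tested probe sets measured on shared arrays, so the values are a description.

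Replicate numbers went partly with the clusters: no array of replicates 7 to 10 was in cluster A. Replicates 1 to 6 were not all in A: clozapine 1 was in B, and clozapine 2 and 6 and control 4 and 6 were in C. Haloperidol 1 and 3 to 6 were in cluster A and haloperidol 8 to 10 in cluster B. Control 7 to 10 were all in cluster B, while clozapine 8 to 10 were in cluster C and clozapine 7 stood alone. Clozapine and cluster therefore cannot be told apart among replicates 7 to 10, while haloperidol 8 to 10 shared cluster B with the controls. This split was chosen after the data had been seen. Replicates 7 to 10 and 1 to 6 were compared in 1 limma fit of all 30 arrays. It had a mean for each group and replicate range and a spread shared by all of them. In replicates 7 to 10, with 4 mice per group, 3 of 11 members passed the adjusted threshold for clozapine against control, against 640 of 12944 probe sets (4.94%). Slc1a1 1460386_a_at had values of 4.05, 4.01, 3.92 and 5.01 in clozapine 7 to 10, against 6.62, 6.79, 6.75 and 6.85 in control 7 to 10. All 4 clozapine values lay below all 4 control values, a difference of -2.51 (SE 0.64, limma adjusted p = 0.0240). This is a weak probe set: its mean of 5.16 over all arrays was above that of 17.0% of tested probe sets. Clozapine 7 to 9 lay close to the filter value of 4. The 3' minus 5' value moved with this difference, at 1.24, 1.22, 0.82 and 1.05 in clozapine 7 to 10 against 0.64, 0.57, 0.63 and 0.50 in control 7 to 10, with no overlap. The arrays with the highest 3' minus 5' values, control 1 and haloperidol 7, also had the lowest 1460386_a_at values (2.91 and 2.66), and the part of RNA quality in this difference was not tested. Over all 10 mice per group, clozapine minus control was -0.83 with an RNA quality covariate and -0.68 without it. Slc1a1 1425415_a_at averaged 7.37 ± 0.34 in clozapine 7 to 10 and 8.73 ± 0.20 in control 7 to 10 (SD, n = 4 each), a difference of -1.36 (SE 0.33, limma adjusted p = 0.0166). Slc1a3 1426341_at averaged 8.39 ± 0.49 in clozapine 7 to 10 and 9.52 ± 0.05 in control 7 to 10, a difference of -1.13 (SE 0.33, limma adjusted p = 0.0442). With the cluster block over all replicates, clozapine minus control was -0.25 (SE 0.29) for 1460386_a_at. It was -0.09 (SE 0.20) for 1425415_a_at and -0.07 (SE 0.17) for 1426341_at.

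Replicates 1 to 6 gave differences of the opposite sign. Among them 0 of 12944 probe sets passed (0%), and the same 3 probe sets had differences of 0.54 (SE 0.53), 0.24 (SE 0.27) and 0.36 (SE 0.27). A test of the change between replicates 7 to 10 and 1 to 6 called 0 of 11 members, against 185 of 12944 probe sets (1.43%), with limma adjusted p of 0.0588, 0.0519 and 0.0686 for the 3 probe sets. For haloperidol against control, 0 of 11 members passed in replicates 7 to 10 (0%) or 1 to 6 (0%). For clozapine against haloperidol 0 of 11 passed in replicates 7 to 10 (0.0541%) or 1 to 6 (0%).

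**Figure D4:**
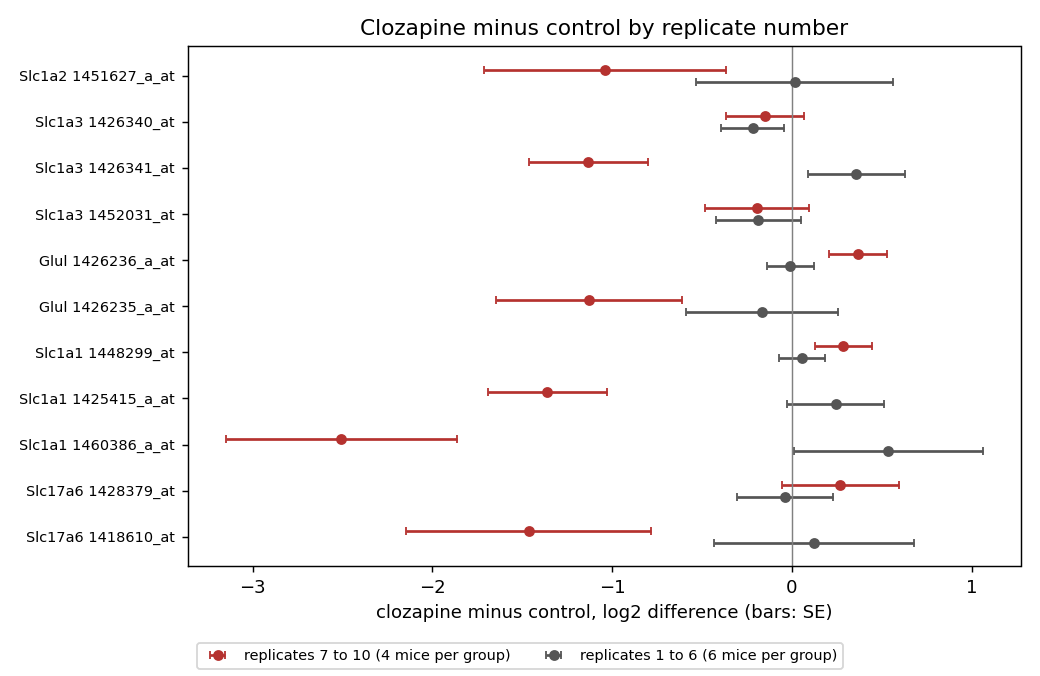
Clozapine minus control, log2 difference on the horizontal axis with SE bars, for each of the 11 probe sets, in replicates 7 to 10 (4 mice per group, red) and 1 to 6 (6 mice per group, grey). Slc1a1 1460386_a_at shows the widest gap, at -2.51 in replicates 7 to 10 and 0.54 in 1 to 6.

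Other genes of the glutamate and glutamine cycle showed no called change either. Of 10 measured enzymes, 0 passed in any comparison, and for clozapine against control 2 were higher and 8 lower, with a median of -0.14. Gad2, which makes GABA from glutamate, averaged 6.59 ± 0.79 in clozapine mice and 7.93 ± 1.24 in control mice (SD, n = 10 each), a difference of -1.34 (SE 0.51, limma adjusted p = 1) that was -0.47 with the cluster block. Gad1, the other enzyme of that step, averaged 12.28 ± 0.42 in clozapine mice and 12.27 ± 0.28 in control mice, a difference of 0.008 (SE 0.16). Of 9 measured further amino acid transporters, 6 were tested and 0 passed in any comparison. Slc38a1, a neuronal glutamine transporter, averaged 7.95 ± 1.76 in clozapine mice and 8.91 ± 0.70 in control mice, a difference of -0.96 (SE 0.50) that was -0.19 with the cluster block. Slc1a6, a transporter of Purkinje cells, was at 0.39 (SE 0.20) for clozapine minus control. Of 5 measured proteins that interact with the transporters, 4 were tested and 0 passed. Nherf1, a scaffold protein, was at 0.25 (SE 0.17) for clozapine minus control and 0.35 (SE 0.17) for haloperidol minus control, or 0.12 and 0.19 with the cluster block.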

How the data were processed

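Right forebrain RNA from 30 mice was hybridised to 30 Affymetrix MOE430A arrays, without pooling. The deposited values are log2 expression. Per the submitters' processing notes, the authors used GCRMA, which corrects background from probe sequence, normalizes between arrays and narrows differences of weak probe sets. The sources used here give neither its version nor a genome build. Samples were grouped by title. Replicates are separate mice per the labels.

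Of 22690 probe sets, 64 controls were left out, and 12944 whose average over the arrays reached 4 were tested. Symbols came from the platform annotation: 20380 probe sets had 1 symbol, 691 several and 1555 none. Groups were compared in R 4.3.3 by limma 3.58.1 (lmFit, eBayes, all 30 arrays, two-sided), with Benjamini-Hochberg adjustment over all 12944 and a threshold of 0.05. The fit was tested on simulated data. Relations between probe sets used two-sided permutation tests within array clusters, exact under 10 arrays and with 100000 permutations otherwise. Array number limits the precision. Alternatives were 2 other normalizations, no filter, blocks for replicate number, replicate range and array cluster, an RNA quality covariate, array weights and leaving out arrays.

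Named genes were all member probe sets, the member of each further list with the smallest p in each direction, and the 3 genes most like each lead probe set. Cell type marker lists are given as counts, and Neurod6 and Tbr1 were named as a check of the tissue. Gad1 was named beside Gad2 as the other enzyme of the same step. The members and lists were chosen with earlier results of these data known. A fit of all 30 arrays with a mean for each group in replicates 1 to 6 and in 7 to 10, and the same-gene relations, were added after seeing the data. Lists not described elsewhere gave 0 calls in all 3 comparisons: cortical excitatory neuron (6 of 7 measured genes tested), oligodendrocyte (8 of 8), microglia (8 of 8), endothelial (5 of 8), striatal (5 of 5) and cerebellar markers (3 of 7). Of the blood markers, 2 were measured and 0 tested.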

Additional observations from a re-analysis of the deposited data

Results flagged for a closer look

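Of 33 groups of 10 arrays, 4 had an array far from the others, with a gap to its nearest neighbour above Dixon's critical share of the range (0.466); chance gives such a gap in about 5% of groups. Slc1a3 1426340_at was 11.17 in control 1, with the nearest control at 10.40, a gap of 0.55 of the range. Slc1a3 1426341_at was 7.87 in the same mouse, with the nearest control at 8.74 (0.52), so control 1 was the highest control by 1 probe set of the gene and the lowest by another. Control 1 had a 3' minus 5' value of 4.09, the highest of all arrays. Glul 1426235_a_at was 7.22 in haloperidol 7, with the nearest haloperidol mouse at 9.05 (0.54); the 3' minus 5' value of that array was 2.45. Slc17a6 1428379_at was 8.48 in control 5, with the nearest control at 9.49 (0.57).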

How the results depend on the processing

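Recomputing the 33 member differences under 12 other settings gave 396 values, of which 371 kept their direction and 25 reversed; the cause was not tested. For clozapine against control 1 of 132 reversed, Slc1a3 1426340_at at 0.0040 with array weights. For haloperidol against control 18 of 132 reversed. Slc1a1 1448299_at was 0.022 with quantile normalization, 0.013 with median centring, 0.020 with the cluster block, 0.037 with the RNA quality covariate, and 0.015 with array weights, and ran from -0.040 to 0.041 on leaving out haloperidol 2, haloperidol 7 or control 1 in turn. Slc1a3 1426340_at was 0.024 with the cluster block, 0.30 with array weights, 0.12 without all 3 of those arrays, and -0.035 to 0.037 without each. Slc1a3 1426341_at was -0.085 with the RNA covariate, -0.099 with array weights, and -0.083 to 0.17 without each. Glul 1426236_a_at was -0.027 with the cluster block. Glul 1426235_a_at was -0.30 with the cluster block, -0.11 with the RNA covariate, and -0.043 (without control 1) to 0.32 (without haloperidol 7) without each, with -0.0080 without haloperidol 2. For clozapine against haloperidol 6 of 132 reversed: with the cluster block Slc1a2 at 0.60, Slc1a3 1452031_at at -0.066, Slc1a1 1425415_a_at at 0.042, 1460386_a_at at 0.059 and Slc17a6 1418610_at at 0.033, and with the RNA covariate Slc17a6 1418610_at at 0.053. Counts of called probe sets were 1731 for clozapine against control with array weights and 1 for haloperidol against control with the cluster block, against 0 in each without them. Array weights gave 5 member calls; over the other settings the smallest member adjusted p in limma was 0.219. Same-numbered mice had a median correlation of deviations of 0.036 for clozapine with control, 0.17 for haloperidol with control and 0.25 for clozapine with haloperidol. Different-numbered mice had medians of -0.054, -0.16 and -0.16, so same-numbered mice were somewhat more alike. Only 3, 1 and 1 of 10 correlated best with their own number, and the main fit did not pair the mice. With the replicate block 0 probe sets passed in each comparison.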
